A study of Homo sapiens with 12 samples.

Results

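The aldo-keto reductase (AKR) genes described here are AKR1A1, AKR1B1, AKR1B10, AKR1B15, AKR1C1, AKR1C2, AKR1C3 and AKR7A2. These 8 genes were taken by symbol from the 60675 gene rows of the count table, and 6 of them were among the 15374 genes with enough counts to be tested. They were picked with their values in these libraries already known, so their levels and fold changes are given as a description without p-values. The libraries came from HT29, a cell line of human colorectal adenocarcinoma, and were made to ask which organ the water extract of Aconitum carmichaeli Debeaux (ACD) acts on, with HT29 as the only line that stands for the intestine. ACD was given for 24 h in a low dose of 20 µg/mL, a medium dose of 100 µg/mL and a high dose of 500 µg/mL. The vehicle group received PBS containing 2% DMSO, in which the extract had also been dissolved. In the study's methods 2% is the DMSO of the added solution, which the growth medium in the wells diluted. Each of the 4 groups had 3 libraries. A longer treatment note kept with the libraries describes an extract of Poria cocos, another species, whereas the titles, by which the libraries were grouped, name ACD. Nothing in the labels says that the libraries of a group came from separate cultures on separate days, so the spread between them may be partly technical.

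AKR enzymes use NADPH to reduce aldehydes and ketones to alcohols. AKR1A1 and the AKR1B enzymes act mainly on sugar, lipid and retinoid aldehydes, the AKR1C enzymes on steroids and prostaglandins as well as on xenobiotic carbonyls, and AKR7A2 on dialdehydes and succinic semialdehyde. Several AKR1 genes, with AKR1B10 and the AKR1C genes among them, are known targets of NRF2 (encoded by NFE2L2), the transcription factor that KEAP1 holds back until electrophiles or oxidants reach the cell.

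Expected counts per library ranged from 15941255 to 33866644, with a median of 23833237. Levels are given as CPM, the share of a gene in all counts of its library on the usual scale, with library sizes scaled by TMM, a normalization that sets the bulk of genes equal between libraries. The 10 markers fixed for colon epithelium were all above 1 CPM in at least 1 library, from KRT8 at 5637 to 7321 CPM down to CDX1 at 0.923 to 1.54 CPM, whereas of 9 markers of leukocytes, fibroblasts, endothelium, hepatocytes and glia only COL1A1 and PECAM1 passed 1 CPM, and their summed level stayed between 2.48 and 4.39 CPM. High-dose replicate 2 stood apart from the other libraries. Its log2 difference from the other 2 libraries of its group had an SD of 0.502 over 10626 genes, against 0.102 to 0.293 for the other 11 libraries. The share of counts from the mitochondrial genome was 14.04 to 16.59% at the high dose and 7.41 to 11.05% elsewhere. The high-dose fold changes of the AKR genes described here are therefore given with and without it. Sums, levels per kilobase and most values of other genes include it.

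ACD-treated cells had more RNA of AKR1B10, AKR1C1, AKR1C2 and AKR1C3 with 100 and 500 µg/mL, whereas AKR1A1 and AKR7A2 stayed within 1.5-fold of vehicle and AKR1B1 and AKR1B15 were hardly expressed. A differentially expressed gene (DEG) was one with an adjusted p under 0.05 in edgeR's quasi-likelihood test and a fold change over 1.5. With 500 µg/mL, 4 of the 6 AKR genes tested were DEGs (AKR1B10, AKR1C1, AKR1C2 and AKR1C3), all higher, where 2.93% of all genes tested were DEGs and 1.26% were higher. At the medium dose AKR1B10 was a DEG, where 0.676% of all genes were DEGs and 0.384% were higher. At the low dose 0 of 6 were DEGs in edgeR and in DESeq2 and 0 had an unadjusted p under 0.05, where 0.111% of all genes were DEGs and 7.95% had such a p. With 100 and with 500 µg/mL, 5 of 6 had an unadjusted p under 0.05, as did 11.7% and 20.1% of all genes. These were the 4 higher genes and AKR7A2, which was lower. The libraries of the 4 genes lay wholly above vehicle with 100 and with 500 µg/mL, as did those of 14.5% and 10.5% of all genes. With 100 µg/mL those of AKR1A1 and AKR7A2 lay wholly below it, as did 14.1%. Since the genes were picked on these contrasts, nothing is read from these shares.

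AKR1C1, AKR1C2 and AKR1C3 lie side by side on chromosome 10 of GRCh38. AKR1C1 (ENSG00000187134) spans chr10:4963253-4983283 on the plus strand, AKR1C2 (ENSG00000151632) chr10:4987775-5018031 on the minus strand and AKR1C3 (ENSG00000196139) chr10:5035354-5107686 on the plus strand. AKR1C1 chiefly inactivates progesterone, AKR1C2 inactivates dihydrotestosterone, and AKR1C3 forms testosterone from androstenedione and makes prostaglandin F. Their canonical coding sequences are 969 bases long each. AKR1C1 and AKR1C2 differ at 19 of these bases (98.04% identity), AKR1C1 and AKR1C3 at 83 (91.43%), and AKR1C2 and AKR1C3 at 87 (91.02%).

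The following stretch of 102 coding bases in exon 7 (coding positions 681 to 782) is shown because the genes cannot be told apart in it. It is the same, base for base, in AKR1C1 at chr10:4972584-4972685, in AKR1C2 at chr10:4995383-4995484 and in AKR1C3 at chr10:5102485-5102586. A read of 100 bases that lies within it can be placed on none of them by its own sequence, though its mate may lie outside. AKR1C2 is on the minus strand, and all sequences are read 5′ to 3′ along the gene.
AKR1C1, AKR1C2 and AKR1C3 exon 7: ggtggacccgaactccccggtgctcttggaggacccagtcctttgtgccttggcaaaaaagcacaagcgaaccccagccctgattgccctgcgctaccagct

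The next stretch of 100 coding bases lies in exon 2 (coding positions 85 to 184) and is shown because AKR1C1 and AKR1C2 differ most there within 1 exon. Capitals mark the 17 positions at which at least 1 of the 3 genes differs. In it AKR1C1 differs from AKR1C2 at 10 bases and from AKR1C3 at 9, and AKR1C2 differs from AKR1C3 at 15. The stretch lies at chr10:4965914-4966013 in AKR1C1, chr10:5001582-5001681 in AKR1C2 and chr10:5096410-5096509 in AKR1C3.
AKR1C1 exon 2: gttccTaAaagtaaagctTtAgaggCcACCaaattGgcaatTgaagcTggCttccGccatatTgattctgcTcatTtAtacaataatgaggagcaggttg
AKR1C2 exon 2: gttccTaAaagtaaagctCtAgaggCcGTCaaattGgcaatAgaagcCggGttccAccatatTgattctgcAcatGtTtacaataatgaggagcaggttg
AKR1C3 exon 2: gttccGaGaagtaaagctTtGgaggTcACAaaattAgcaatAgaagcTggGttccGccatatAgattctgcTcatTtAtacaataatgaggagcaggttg

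Over whole canonical transcripts, 799 of the 6444 windows of 100 bases in AKR1C1 (12.4%) and of the 3116 in AKR1C2 (25.6%) occur in both genes. Of the 1087 windows in AKR1C3, 72 (6.62%) also occur in AKR1C2 and 19 (1.75%) in AKR1C1. The counting program, RSEM, divides reads that fit several genes between them in fractions. The expected count was not a whole number, with a tolerance of 0.005, in 11 of 12 libraries for AKR1C1 and in 12 of 12 for AKR1C2 and AKR1C3, whereas it was whole in all 12 for AKR1A1, AKR1B1, AKR1B10, AKR1B15 and AKR7A2. The fractions show that reads were divided but not how many. The levels of AKR1C1 and AKR1C2 are therefore uncertain with respect to each other, and their sum is given beside them.

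All 3 AKR1C genes were higher with 100 and 500 µg/mL than in vehicle, by 1.39- to 1.50-fold and by 2.05- to 2.66-fold, and their low-dose libraries overlapped with vehicle. AKR1C1 was at 14.4, 12.6 and 13.7 CPM in the vehicle libraries, 13.9, 12.3 and 14.6 CPM with 20 µg/mL, 18.8, 19.0 and 18.8 CPM with 100 µg/mL and 26.7, 48.7 and 29.7 CPM with 500 µg/mL. The vehicle and low-dose libraries overlapped, and every medium-dose library lay above both of these groups and below every high-dose library. The log2 fold change of AKR1C1 against vehicle was 0.00 (SE 0.18) with 20 µg/mL, 0.48 (SE 0.18) with 100 µg/mL and 1.36 (SE 0.18) with 500 µg/mL. Each library had between 261.03 and 967 expected counts of AKR1C1. In bulk RNA, more cells of a kind and more RNA per cell cannot be told apart.

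AKR1C2 followed the same order. Its libraries were at 10.5, 9.15 and 10.5 CPM with vehicle, 9.72, 9.51 and 12.04 CPM with 20 µg/mL, 15.0, 14.9 and 15.1 CPM with 100 µg/mL and 21.1, 37.5 and 22.1 CPM with 500 µg/mL. As with AKR1C1, the vehicle and low-dose libraries overlapped and the medium and high-dose libraries did not overlap with any other group. The log2 fold change of AKR1C2 was 0.06 (SE 0.19), 0.59 (SE 0.19) and 1.41 (SE 0.19) from the low to the high dose.

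AKR1C3 had several times the CPM of the other AKR1C genes. It was at 63.4, 48.1 and 50.1 CPM with vehicle, 51.9, 51.2 and 59.4 CPM with 20 µg/mL, 71.7, 82.6 and 71.5 CPM with 100 µg/mL and 85.1, 142.7 and 103.3 CPM with 500 µg/mL. Each medium-dose library was above the highest vehicle library, though vehicle replicate 1 came closer to them than the other 2 did. Log2 fold changes of AKR1C3 were 0.01 (SE 0.17), 0.49 (SE 0.17) and 1.03 (SE 0.17).

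**Figure D1:**
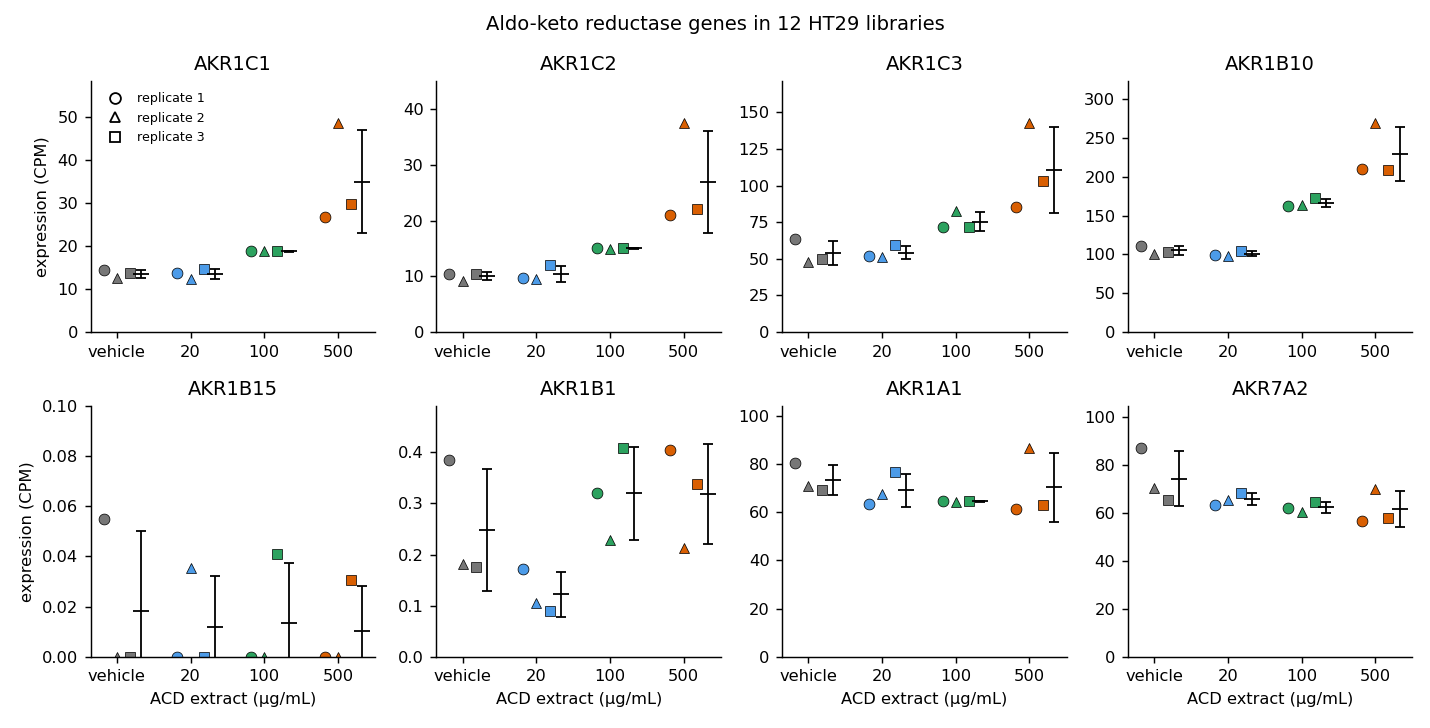
CPM (linear axis from 0, a scale of its own in each panel) of the 8 AKR genes in every library by ACD dose in µg/mL, with symbols for the replicate and bars for the mean ± SD of 3 libraries. AKR1C1, AKR1C2, AKR1C3 and AKR1B10 are higher in all medium-dose and high-dose libraries than in any vehicle library, high-dose replicate 2 (triangle) is the highest library for these 4 genes, and AKR1B15 lies at 0 or 1 count.

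High-dose replicate 2 carried part of these differences. It had 1.73 times the mean CPM of the other 2 high-dose libraries for AKR1C1, 1.74 times for AKR1C2 and 1.52 times for AKR1C3. Without it, the log2 fold change at the high dose was 1.07 (SE 0.08) for AKR1C1, 1.12 (SE 0.10) for AKR1C2 and 0.82 (SE 0.12) for AKR1C3. The remaining 2 high-dose libraries were still above every medium-dose library for all 3 genes. What sets replicate 2 apart was not tested.

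Summed over near-identical genes, the order of the doses was as for each gene. AKR1C1 and AKR1C2 together had 23.6 ± 1.62 CPM (SD, n = 3) with vehicle, 24.0 ± 2.44 with 20 µg/mL, 33.9 ± 0.0552 with 100 µg/mL and 61.9 ± 21.1 with 500 µg/mL. The log2 fold change of their summed counts was 0.03 (SE 0.18), 0.52 (SE 0.18) and 1.39 (SE 0.18), and that of AKR1C1 to AKR1C4 summed was 0.01 (SE 0.17), 0.50 (SE 0.17) and 1.15 (SE 0.17). These sums do not depend on how reads were divided within the set that was summed.

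The AKR1C genes did not all keep the same proportion. The ratio of AKR1C1 to AKR1C2 CPM was 1.35 ± 0.04 (SD, n = 3) with vehicle and 1.30 ± 0.04 at the high dose, and stayed between 1.21 and 1.43 in all 12 libraries. The ratio of AKR1C3 to AKR1C1 was 3.66 to 4.41 with vehicle, 3.74 to 4.16 with 20 µg/mL, 3.80 to 4.36 with 100 µg/mL and 2.93 to 3.47 with 500 µg/mL. Each high-dose library, replicate 2 or not, was thus below every other library in that ratio. It is computed from the same values that the genes were picked on and was not tested. Both ratios also depend on how RSEM divided shared reads between these genes.

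**Figure D2:**
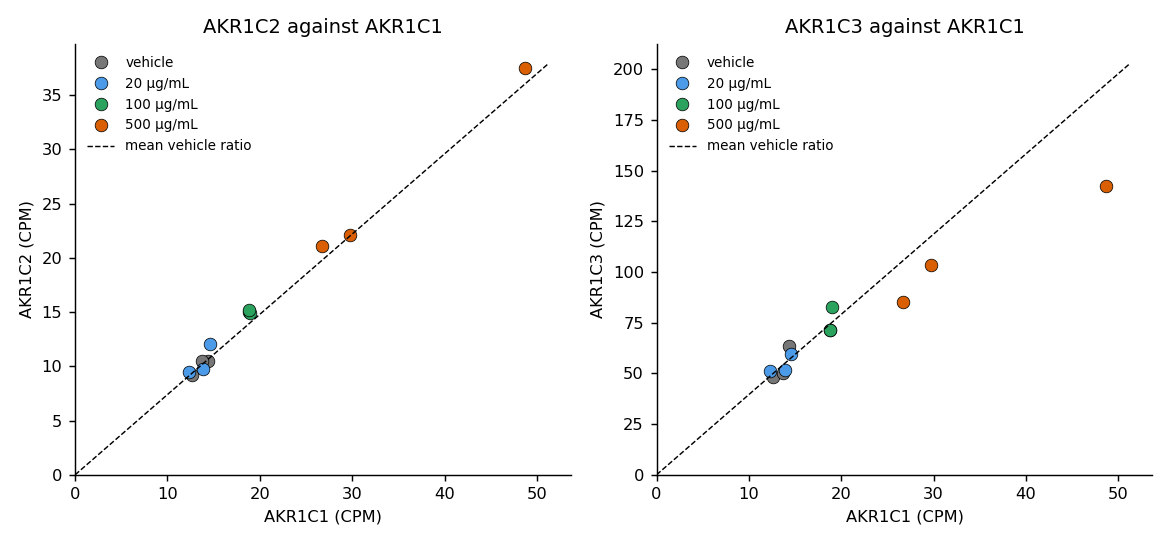
AKR1C2 (left) and AKR1C3 (right) against AKR1C1, all in CPM on linear axes, 1 point per library coloured by dose; the dashed line is the mean vehicle ratio. AKR1C2 stays near the line at every dose, while the 3 high-dose libraries fall under it for AKR1C3.

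The sequence before the start sites is also nearly shared between AKR1C1 and AKR1C2. In RefSeq (GRCh38.p14), the 250 bases before the start of AKR1C1 (chr10:4963165-4963414) and those before the start of AKR1C2 (chr10:5003858-5004107, minus strand) match at all but 1 of 246 bases when shifted by 4 bases. The part of it that overlaps no annotated exon of either gene is 84 bases long and does not differ. It is given here since both genes carry it, at chr10:4963169-4963252 for AKR1C1, just before the gene, and at chr10:5004024-5004107 for AKR1C2, which lies within the annotated span of that gene, in an intron of transcripts that start farther upstream.
AKR1C1 and AKR1C2 before the RefSeq start: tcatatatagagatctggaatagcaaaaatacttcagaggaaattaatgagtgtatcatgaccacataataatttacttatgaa

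The 250 bases before each RefSeq start were searched on both strands for the core of the antioxidant response element, TGACNNNGC, which NRF2 binds, and for the core of the xenobiotic response element, GCGTG, which the aryl hydrocarbon receptor binds. Of 35116 promoters of that length, 10.9% hold the first and 32.2% the second. AKR1A1, AKR1C1, AKR1C2 and both starts of AKR1C3 hold neither in this window. AKR1B1 holds 1 GCGTG, the same site seen before both of its 2 starts, and AKR7A2 holds 3 TGACNNNGC and 1 GCGTG. These are the 6 of the 8 genes that had an entry. A match is no binding site by itself, and elements outside these windows were not searched.

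AKR1B10 reduces retinal and the aldehydes of lipid peroxidation and of food, and is expressed in the epithelium of the gut. AKR1B10 (ENSG00000198074, chr7:134527567-134541412, plus strand) was at 111.1, 100.8 and 103.3 CPM with vehicle, 99.8, 98.6 and 104.7 CPM with 20 µg/mL, 162.3, 163.9 and 172.4 CPM with 100 µg/mL and 210.2, 269.3 and 208.7 CPM with 500 µg/mL. Vehicle and low-dose libraries overlapped, and the libraries of the other doses each formed a range of their own. Its log2 fold change was −0.06 (SE 0.09), 0.66 (SE 0.09) and 1.13 (SE 0.10), that is 1.58-fold at the medium and 2.18-fold at the high dose, and 1.00 (SE 0.06) at the high dose without replicate 2. Replicate 2 had 1.29 times the mean of the other 2 high-dose libraries, a smaller excess than in the AKR1C genes.

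The medium-dose fold change of AKR1C2, 1.50-fold, lay just past the threshold. AKR1C2 was no DEG there with all libraries, since its adjusted p was not under 0.05, but it was with DESeq2 or edgeR on vehicle and medium libraries alone and without high-dose replicate 2. AKR1C3 was no DEG at the high dose when edgeR was fitted to vehicle and high-dose libraries alone.

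**Figure D3:**
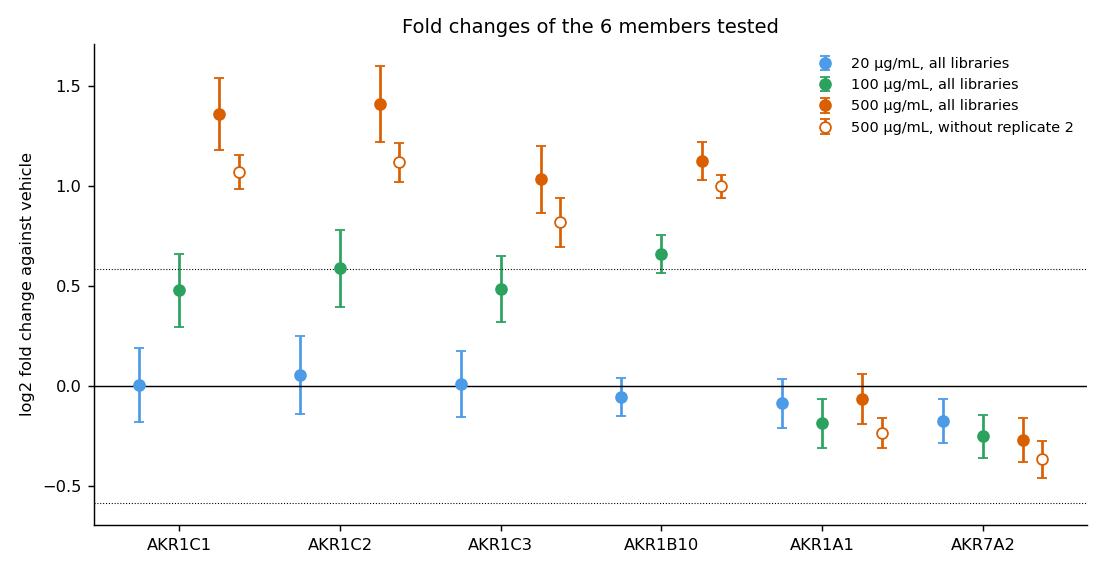
Log2 fold change against vehicle with its SE (bars) for the 6 genes tested at 3 doses in µg/mL, from edgeR, with open symbols for the high dose without replicate 2 and dotted lines at a fold change of 1.5. AKR1C1, AKR1C2, AKR1C3 and AKR1B10 lie near 0 at the low dose and between 1.03 and 1.41 at the high dose, where AKR1A1 and AKR7A2 lie at −0.06 and −0.27.

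The steps between doses differed in size among these genes. From low to medium dose, the log2 difference was 0.72 (SE 0.09) for AKR1B10, 0.47 (SE 0.18) for AKR1C1, 0.53 (SE 0.19) for AKR1C2 and 0.48 (SE 0.17) for AKR1C3. From medium to high dose it was 0.46 (SE 0.09) for AKR1B10, 0.88 (SE 0.18) for AKR1C1, 0.82 (SE 0.18) for AKR1C2 and 0.55 (SE 0.16) for AKR1C3. With all libraries, AKR1B10 thus had the larger of these steps between the lower doses and the AKR1C genes between the higher doses. Without high-dose replicate 2, the steps were 0.72 and 0.33 for AKR1B10, 0.48 and 0.59 for AKR1C1, 0.54 and 0.52 for AKR1C2 and 0.48 and 0.33 for AKR1C3. No SE was computed for these steps. The first step stayed the larger for AKR1B10 and became so for AKR1C3. Those of AKR1C2 were nearly equal, and those of AKR1C1 kept their order by a small margin. The difference between genes was not tested.

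The other AKR1B genes were barely detected. AKR1B1 (ENSG00000085662, chr7:134442356-134459284, minus strand), the aldose reductase of the polyol pathway, had 7, 6 and 4 counts with vehicle, 5, 3 and 2 with 20 µg/mL, 7, 7 and 10 with 100 µg/mL and 9, 3 and 11 with 500 µg/mL, or 0.0895 to 0.409 CPM. AKR1B15 (ENSG00000227471, chr7:134549110-134579875, plus strand), a close relative of AKR1B10, had 0 or 1 count in every library. A count of 0 allows up to 3 counts, which is 0.0909 to 0.212 CPM in these libraries. Neither gene passed the filter on low counts, and no fold change is given. Such small counts cannot show a difference between doses.

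Shared reads bear less on AKR1B10 than on the AKR1C genes. Of its 1520 windows of 100 bases, 30 (1.97%) occur in another gene, 17 of them in AKR1B15 and 13 in the pseudogene AKR1B10P1, which had at most 0.0409 CPM. AKR1B1 and AKR1B10, which have 75.21% identity over 948 coding bases, share no window. The log2 fold change of AKR1B10 and AKR1B15 summed was −0.06, 0.66 and 1.13, as for AKR1B10 alone.

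AKR1A1, the general aldehyde reductase, and AKR7A2 were well expressed and were no DEGs at any dose. AKR1A1 (ENSG00000117448, chr1:45550543-45570049, plus strand) was at 80.4, 70.9 and 69.1 CPM with vehicle, 63.4, 67.5 and 76.6 CPM with 20 µg/mL, 64.7, 64.4 and 64.5 CPM with 100 µg/mL and 61.4, 86.9 and 63.0 CPM with 500 µg/mL. AKR1A1 overlapped with vehicle at the low dose, and all medium-dose libraries lay below all vehicle libraries. At the high dose replicate 2 lay above all vehicle libraries, and the other libraries of that dose lay below all of them. Its log2 fold change was −0.09 (SE 0.12), −0.19 (SE 0.12) and −0.06 (SE 0.12), and −0.24 (SE 0.08) at the high dose without replicate 2.

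AKR7A2 (ENSG00000053371, chr1:19303965-19312144, minus strand) showed a like pattern. It was at 87.3, 70.3 and 65.3 CPM with vehicle, 63.5, 65.4 and 68.5 CPM with 20 µg/mL, 61.9, 60.3 and 64.7 CPM with 100 µg/mL and 56.7, 70.1 and 58.1 CPM with 500 µg/mL. Here too the medium-dose libraries were all below vehicle, and the other doses overlapped with it, the high dose only through replicate 2. The log2 fold change of AKR7A2 was −0.17 (SE 0.11), −0.25 (SE 0.11) and −0.27 (SE 0.11), and −0.37 (SE 0.09) at the high dose without replicate 2. In both genes high-dose replicate 2 was the highest library of its group, as it was in AKR1B10 and the AKR1C genes.

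The levels of different genes were compared per kilobase of the canonical transcript. With vehicle, the mean was 64.9 ± 3.31 CPM per kb (SD, n = 3) for AKR1B10, 54.6 ± 8.48 for AKR7A2, 52.2 ± 4.32 for AKR1A1 and 45.4 ± 7.01 for AKR1C3. Neighbours among these 4 overlapped in their libraries. AKR1C2 at 3.12 ± 0.24 and AKR1C1 at 2.07 ± 0.13 CPM per kb were well below them, and AKR1B1 at 0.182 and AKR1B15 at 0.0112 were the lowest. AKR1C1 came before AKR1C2 per kilobase of coding sequence, at 14.005 and 10.362 CPM. Its canonical transcript of 6543 bases is longer than the 3215 bases of AKR1C2, so their order depends on the length used. AKR1C3, with a transcript of 1186 bases, was at 55.6 CPM per kilobase of coding sequence. The distance of AKR1C1 and AKR1C2 from it thus depends on that length too.

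At the high dose the order had moved. AKR1B10 was at 142 ± 21.4 CPM per kb, followed by AKR1C3 at 93.1 ± 24.8, and each was above AKR1A1 at 50.1 ± 10.2 and AKR7A2 at 45.3 ± 5.41 without overlap. AKR1A1 and AKR7A2 overlapped, and AKR1C2 and AKR1C1 followed at 8.37 ± 2.86 and 5.36 ± 1.82 CPM per kb. Per kilobase of coding sequence AKR1C2 and AKR1C1 were at 27.8 and 36.2 CPM, and AKR1C3 at 114. AKR1C3, which overlapped with AKR1A1 with vehicle, no longer did.

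The 8 genes together took up 331 ± 32.0 CPM with vehicle, 314 ± 18.8 with 20 µg/mL, 403 ± 6.86 with 100 µg/mL and 534 ± 106 CPM (SD, n = 3) with 500 µg/mL. AKR1B10 made up 30.2 to 33.1% of that sum with vehicle, 31.2 to 33.0% with 20 µg/mL, 40.4 to 42.3% with 100 µg/mL and 41.1 to 45.5% with 500 µg/mL. Its share at the medium and high doses lay above that in every vehicle and low-dose library. Shares of CPM within the sum are not shares of transcripts, since the genes differ in length.

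The rest of the AKR superfamily gave few values. Of 25 other genes in the table, AKR1C4, AKR1E2, AKR7A3, AKR7L, KCNAB1, KCNAB2 and KCNAB3 were tested, 12 were at 0 counts in every library, and the other 6 had at most 8 counts in a library. KCNAB2, a beta subunit of potassium channels, was the only DEG among the 7, at the high dose, with 3.62 ± 0.187 CPM with vehicle and 5.59 ± 0.369 CPM at the high dose (log2 fold change 0.64, SE 0.10, adjusted p = 0.00342, edgeR). That call was lost with edgeR on vehicle and high-dose libraries alone. At the high dose 2.93% of all genes tested were DEGs. None of the 7 was a DEG at the low or medium dose in edgeR or DESeq2. At each of these doses 2, KCNAB2 and the lower AKR7L, had an unadjusted p under 0.05, as did 7.95% and 11.7% of all genes.

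AKR7A3 and AKR7L stand next to AKR7A2 on chromosome 1 and share reads with each other. Of the 1116 windows of AKR7A3, 168 (15.1%) occur in AKR7L, whereas only 4 occur in AKR7A2, and their expected counts were not whole in any of 12 libraries. AKR7A3 was at 34.9 ± 5.19 CPM with vehicle and 30.5 ± 3.81 at the high dose (log2 fold change −0.20, SE 0.11, adjusted p = 0.354, edgeR). AKR7L was at 8.33 ± 0.475 CPM with vehicle and 6.89 ± 1.39 at the high dose (−0.30, SE 0.14, adjusted p = 0.239). Without high-dose replicate 2 their adjusted p at the high dose was 0.0405 and 0.0106, at −0.28 and −0.45 on the log2 scale. AKR1C4, the liver member of the AKR1C cluster, had 0.496 ± 0.0990 CPM with vehicle and 0.641 ± 0.0625 at the high dose (0.31, SE 0.36, adjusted p = 0.695), AKR1E2 0.822 ± 0.184 and 0.989 ± 0.210, KCNAB1 0.860 ± 0.0617 and 1.04 ± 0.183, and KCNAB3 0.442 ± 0.0897 and 0.801 ± 0.0475 CPM.

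Beside the AKR genes, 32 other known NRF2 targets and regulators were listed, of which 31 were tested. With 500 µg/mL, 10 were DEGs, all higher, where 2.93% of all genes tested were DEGs. All 31 had a log2 fold change above 0, but without high-dose replicate 2 only 27 did. The median was 0.50 where that of all genes tested was 0.01. At the medium dose 5 were DEGs, all higher, where 0.676% of all genes were DEGs, with a median of 0.23 against −0.01 for all genes. At the low dose 0 were DEGs in edgeR and DESeq2, with 4 at an unadjusted p under 0.05, as had 7.95% of all genes. The medium-dose count was 2 without vehicle replicate 2 and 3 without medium-dose replicate 1. Without high-dose replicate 2, 13 of 31 were DEGs with 500 µg/mL and the median was 0.46. The list covers genes already seen to be higher in these libraries, so it is no independent evidence. All these contrasts share the vehicle libraries with those of the AKR genes.

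ALDH3A1, GCLC and SLC7A11 had the smallest p among them. ALDH3A1, which oxidizes aldehydes, was at 21.7 ± 1.11 CPM with vehicle, 52.7 ± 0.933 with 100 µg/mL and 76.5 ± 4.24 with 500 µg/mL (log2 fold change 1.82, SE 0.07, adjusted p = 3.43e-08, edgeR). GCLC, a subunit of the enzyme that starts glutathione synthesis, went from 74.2 ± 2.72 to 126 ± 5.96 CPM at the high dose (0.77, SE 0.06, adjusted p = 2.30e-05), and SLC7A11, the cystine importer, from 139 ± 7.97 to 320 ± 44.1 CPM (1.20, SE 0.10, adjusted p = 2.93e-05).

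The textbook targets GCLM, HMOX1, TXNRD1 and NQO1 were DEGs at the high dose as well. The log2 fold change was 0.75 (SE 0.09, adjusted p = 0.000335, edgeR) for GCLM, 1.09 (SE 0.11, adjusted p = 9.38e-05) for HMOX1 and 0.72 (SE 0.07, adjusted p = 7.73e-05) for TXNRD1. NQO1, the quinone reductase, was at 503 ± 29.2 CPM with vehicle and 930 ± 260 CPM at the high dose (0.89, SE 0.15, adjusted p = 0.00386), and at 0.63 without replicate 2. NFE2L2, which encodes NRF2, was at 122 ± 4.61 and 143 ± 12.6 CPM (0.23, SE 0.08, adjusted p = 0.138) and KEAP1 at 58.9 ± 3.00 and 64.6 ± 13.0 CPM (0.13, SE 0.11, adjusted p = 0.589), so that neither passed the test. Without replicate 2, KEAP1 was at −0.04.

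The median of 17 aldehyde dehydrogenases tested, which oxidize the kinds of aldehyde that AKR enzymes reduce, was 0.10 on the log2 scale with 500 µg/mL. Of the 17, 3 were higher DEGs at that dose, where 1.26% of all genes tested were. Besides ALDH3A1, which is on both lists, these were ALDH1A3 and ALDH3A2. ALDH1A3, which makes retinoic acid from retinal, was at 18.6 ± 0.799 CPM with vehicle, 37.7 ± 5.22 with 20 µg/mL (1.02, SE 0.10, adjusted p = 0.00177, edgeR), 99.8 ± 1.13 with 100 µg/mL (2.42, SE 0.10, adjusted p = 1.47e-07) and 73.8 ± 4.94 with 500 µg/mL (1.99, SE 0.10, adjusted p = 2.07e-07). It was a DEG at all 3 doses, and its highest mean was at the medium dose. ALDH3A2, the fatty aldehyde dehydrogenase, went from 107 ± 7.03 to 185 ± 4.25 CPM at the high dose (0.78, SE 0.07, adjusted p = 3.59e-05).

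Reductases of other protein families with similar substrates moved little. Of 21 tested, DHRS9, a retinol and steroid dehydrogenase, was higher at the high dose, with 0.841 ± 0.320 against 1.81 ± 0.181 CPM (log2 fold change 1.10, SE 0.24, adjusted p = 0.0187, edgeR), and DHRS2 was lower, with 7.32 ± 0.480 against 4.86 ± 1.13 CPM (−0.63, SE 0.13, adjusted p = 0.0155). Both calls were lost with DESeq2 or edgeR on vehicle and high-dose libraries alone, and without vehicle replicate 2 or high-dose replicate 3. Without vehicle replicate 3 or high-dose replicate 1, 1 of them was left, in the higher direction. None was a DEG at the low or medium dose in edgeR or DESeq2. An unadjusted p under 0.05 was found for 0 and 1 of them, and for 7.95% and 11.7% of all genes. At the high dose 2.93% of all genes tested were DEGs. The median over the 21 was 0.01 at that dose, as for all genes, and −0.03 without high-dose replicate 2.

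Of 22 other enzymes of steroid and prostaglandin metabolism tested, only PTGS2, the inducible cyclooxygenase, was a DEG. It was at 15.4 ± 1.30 CPM with vehicle, 27.7 ± 1.94 with 100 µg/mL (0.85, SE 0.09, adjusted p = 0.000703, edgeR) and 23.9 ± 0.335 with 500 µg/mL (0.63, SE 0.09, adjusted p = 0.00179). Its call at the high dose was lost without vehicle replicate 1, and without high-dose replicate 2 the list had 2 DEGs. At the low dose 0 were DEGs in edgeR and DESeq2, with 2 at an unadjusted p under 0.05, as had 7.95% of all genes. Over all genes tested, 0.676% and 2.93% were DEGs at the medium and high doses. The median of the list was 0.05 at the high dose and −0.08 without high-dose replicate 2.

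**Figure D4:**
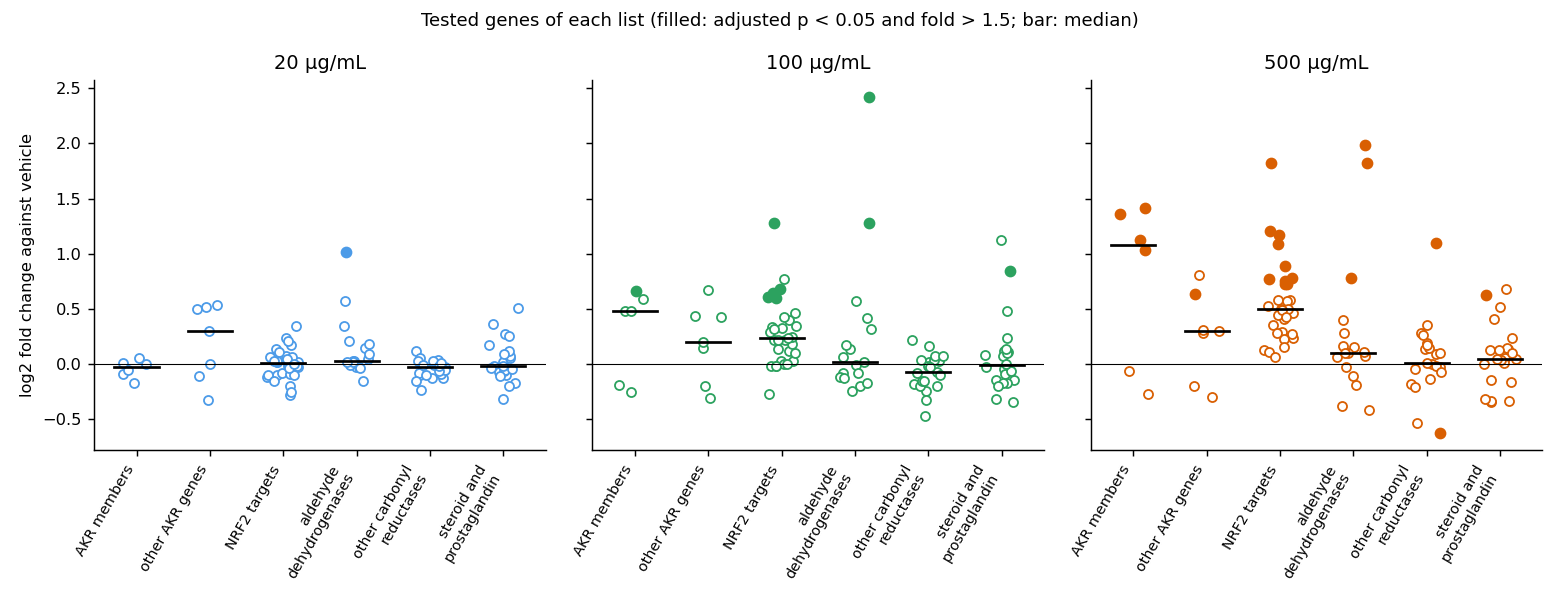
Log2 fold change against vehicle (edgeR) of the tested genes of each list, 1 panel per ACD dose, with filled points for DEGs and bars for the list's median. ALDH3A1, CBR1 and PTGR1 are drawn in 2 lists. At 500 µg/mL the AKR genes fall into 4 filled points above 1 and 2 open points under 0. Without high-dose replicate 2, AKR1B10 was at 0.997 and AKR1C3 at 0.818. All 31 NRF2 targets lie above 0 at that dose (27 without high-dose replicate 2).

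The genes outside the family whose log2 CPM followed each AKR gene most closely were looked up among 13141 genes with a mean of at least 1 CPM, by Pearson's r over the 12 libraries. These libraries fall into dose groups and share depth and scaling, so r is a description here. Among the 3 closest genes of AKR1C1 were NQO1 (r = 0.994) and AMIGO2 (0.982), a cell adhesion protein. Among those of AKR1C2 were NQO1 (0.990) and UGT1A10 (0.989), a glucuronosyltransferase of the gut, and among those of AKR1C3 NQO1 (0.974) and AREG (0.974), a ligand of the EGF receptor. NQO1 was thus first for each AKR1C gene, and it stayed first for each without high-dose replicate 2, at 0.992, 0.988 and 0.967.

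AKR1B10 was followed most closely by other genes of the NRF2 list. These were GCLC (0.984), TRIM16 (0.983), a ubiquitin ligase, and EPHX1 (0.977), the microsomal epoxide hydrolase. For AKR1A1 they were TMEM187 (0.990), LGALS4 (0.979), a galectin of the gut epithelium, and TMEM258 (0.978), a subunit of the oligosaccharyltransferase, and for AKR7A2 IGFBP2 (0.966), which binds insulin-like growth factors, TSR3 (0.960), which modifies ribosomal RNA, and EBP (0.959), a sterol isomerase. Without high-dose replicate 2, none of the 3 named for AKR7A2 was among its top 3, and UGT1A10 was not among those of AKR1C2, EPHX1 not among those of AKR1B10 and LGALS4 not among those of AKR1A1.

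Among the AKR genes themselves, AKR1C1 and AKR1C2 had r = 0.994, which their divided reads also bear on, and AKR1B10 had r = 0.953 with AKR1C1, 0.963 with AKR1C2 and 0.952 with AKR1C3. AKR1A1 and AKR7A2 had r = 0.785 with each other. AKR1A1 had r = 0.187 with AKR1C1 over all libraries and −0.593 without high-dose replicate 2, so that this library alone sets the sign.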

How the data were processed

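The submitters' notes name FastQC 0.11.9, Trim Galore 0.6.5, STAR 2.7.3a and RSEM 1.3.3, and the study's methods name the GRCh38.84 annotation. The values the authors deposited are the expected counts of RSEM per gene, not normalized. The strand setting of RSEM is not given in the sources used here, so genes that overlap on opposite strands are uncertain. Of 60675 gene IDs, 56558 (93.2%) had a symbol in the reference tables, and 29861 had a count.

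Expected counts were rounded and tested with edgeR 4.0.16 (limma 3.58.1, R 4.3.3): filterByExpr, TMM and the robust quasi-likelihood test on 12 libraries in 4 groups, with the Benjamini–Hochberg adjustment over 15374 genes per dose. The biological coefficient of variation was 11.2%, and a prior count of 2 was added for log2 CPM. The AKR genes and all lists were chosen with earlier results of these data known. Named are the AKR genes, the DEGs of each list at the high dose (over 6, the 3 of smallest p in each direction), the 3 genes most like each AKR gene and 6 genes of the NRF2 pathway. Alternatives were DESeq2 1.42.0, edgeR on single doses, DESeq2's size factors, no mitochondrial rows, other filters, a replicate block, no minimum fold change, summed paralogs and each library left out. Windows and coding sequences came from GENCODE 44 (GRCh38) and promoters from RefSeq. Scripts used Python 3.11.15, numpy 2.4.6 and pandas 2.3.3, and the test was first checked on simulated counts. Of the genes that followed the AKR1C genes most closely, 1 is not reported here.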

Additional observations from a re-analysis of the deposited data

How the results depend on the processing

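Among the AKR genes, AKR1B10 was a DEG at the medium and high doses, and AKR1C1 and AKR1C2 at the high dose, in each of 20 alternatives, and AKR1C3 at the high dose in 19. The high-dose log2 fold change ranged over the alternatives from 0.997 to 1.19 for AKR1B10, 1.07 to 1.52 for AKR1C1, 1.12 to 1.56 for AKR1C2 and 0.818 to 1.19 for AKR1C3. The medium-dose count of AKR genes that were DEGs was 2 with DESeq2 or edgeR on vehicle and 1 dose, and 1 to 2 with each library left out. With AKR1C1 to AKR1C4 summed, the medium-dose log2 fold change of the sum was 0.496, where AKR1C2 alone had 0.588 with all libraries.

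Over all genes, the low-dose count was 48 with DESeq2 on all libraries, 62 and 51 with DESeq2 and edgeR on vehicle and 1 dose, 34 without a filter and 10 to 109 with each library left out, lowest without vehicle replicate 2 and highest without high-dose replicate 2. The medium-dose count was 164 and 191 on vehicle and 1 dose with DESeq2 and edgeR and 52 to 249 with each library left out, lowest and highest without the same 2 libraries, and 69, 63 and 59 without vehicle replicate 1 and medium-dose replicates 1 and 3. The high-dose count was 172 with edgeR on vehicle and 1 dose, 887 without a minimum fold change and 310 to 768 with each library left out, the highest without high-dose replicate 2. The other AKR genes had 0 DEGs at the high dose with edgeR on vehicle and 1 dose. The NRF2 targets had 8 and 23 at the medium and high doses without a minimum fold change, and 2 to 5 at the medium dose with each library left out, the fewest without vehicle replicate 2. The aldehyde dehydrogenases had 5 at the high dose without a minimum fold change. The other carbonyl reductases had 0 at the high dose on vehicle and 1 dose with either tool, and 0 to 2 with each library left out, with 0 without vehicle replicate 2 or high-dose replicate 3. The steroid and prostaglandin enzymes had 0 to 2 at the high dose, 0 without vehicle replicate 1 and 2 without high-dose replicate 2. The causes were not tested.

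The replicate numbers were used as a block in 1 alternative, which gave 17, 75 and 379 DEGs from low to high dose and 0, 1 and 4 among the AKR genes. Samples with the same number did not deviate together more than others. Their r was −0.495 to 0.372 over 18 pairs of libraries (median −0.078). Over 36 pairs with different numbers it was −0.536 to 0.541 (median 0.060). High-dose replicate 2 deviated most like vehicle replicate 1 (r = 0.541) and low-dose replicate 3 (0.538). Pairing by number was thus not seen, though these r cannot exclude it. At the depth of these libraries, AKR1B1 and AKR1B15 had too few counts for a fold change.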
